A study of Mus musculus with 8 samples.

Results

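The small RNAs of immortalized skin fibroblasts that lack miR-210 were compared between hypoxia and normoxia. The cells came from mir210lox/lox mice on a C57BL/6 background, their libraries are titled KO, and they were kept for 24 h at 1% O2 (hypoxia) or at 21% O2 (normoxia), with 2 libraries for each condition. Fibroblasts of wild-type C57BL/6 mice (WT) under the same 2 conditions, also with 2 libraries each, serve as a reference. They also enter the estimate of spread behind the SE and p-values of the main fit, which covers all 8 libraries. The values are the authors' normalized read counts, and a feature (1 row of the deposited table, such as a mature microRNA arm or 1 transfer RNA gene copy) was included when it reached 10 in 2 or more of the 4 KO libraries. This rule took 1477 of 2403 features: 554 microRNAs, 412 genomic and 22 mitochondrial transfer RNAs, 367 small nucleolar RNAs, 62 features annotated as piRNAs, 38 small nuclear, 12 ribosomal and 9 miscellaneous RNAs, and 1 other transfer RNA. No label says whether the 2 libraries of a group were separate cultures. The p-values therefore reflect only the spread of these samples, and that spread may be technical. The labels give neither the number of fibroblast lines per genotype nor the step that removed the floxed gene, nor the age or sex of the mice. Below, the values of a feature are listed as normoxia 1 and 2 against hypoxia 1 and 2, and log2 changes are hypoxia minus normoxia on log2(value + 1), which understates the change of low features.

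MicroRNAs guide Argonaute proteins to messenger RNAs, mainly by pairing of the seed near the start of the microRNA, so that microRNAs with the same seed can act on overlapping sets of targets. Low oxygen stabilises hypoxia-inducible factor, and miR-210 is the microRNA most widely known as its direct target, with effects on mitochondrial metabolism and the cell cycle. Small RNA libraries also hold small nucleolar RNAs, which guide modification of ribosomal RNA, small nuclear RNAs of the spliceosome, and whole or cleaved transfer RNAs from the nuclear and the mitochondrial genome.

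The mature sequences of the microRNAs that the results turn on are shown from the start (the 5′ end), with the seed, bases 2 to 8, in capitals. The first is miR-210, whose gene is floxed. Next come members of the miR-17 to miR-92a and miR-106b to miR-25 clusters, with miR-92b, which shares a seed with them, and then the arms of the miR-15 and miR-16 hairpins, miR-374 and a pair of related microRNAs from the Clcn5 gene that were lower in hypoxia. These are RefSeq sequences (GRCm38.p6), which lists miR-374-5p as miR-374b-5p.
miR-210-3p: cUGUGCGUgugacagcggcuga
miR-106b-5p: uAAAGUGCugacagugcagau
miR-17-5p: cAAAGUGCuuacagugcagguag
miR-20a-5p: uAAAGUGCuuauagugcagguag
miR-18a-5p: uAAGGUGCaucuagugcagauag
miR-25-3p: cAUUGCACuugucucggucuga
miR-92a-3p: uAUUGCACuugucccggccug
miR-92b-3p: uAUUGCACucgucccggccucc
miR-16-5p: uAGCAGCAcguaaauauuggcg
miR-15a-3p: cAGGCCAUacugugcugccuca
miR-16-2-3p: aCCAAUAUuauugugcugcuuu
miR-374-5p: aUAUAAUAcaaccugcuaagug
miR-501-3p: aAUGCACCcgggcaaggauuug
miR-500-3p: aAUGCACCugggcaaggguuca
The miR-467 arms of the large cluster in an intron of Sfmbt2 are printed as deposited, in DNA letters. Nearly all deposited microRNA sequences that matched RefSeq begin 1 base before the mature start (573 of 575), so here the capitals mark deposited bases 3 to 9.
miR-467a-5p: gtAAGTGCCtgcatgtatatgcgt
miR-467c-5p: atAAGTGCGtgcatgtatatgtgt

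miR-210 checked the genotype label. miR-210-3p, the guide arm (chromosome 7), held 23 and 14 under normoxia and 10 and 32 under hypoxia in the KO libraries. The WT libraries held 4786 and 8676, then 36738 and 39011. Its log2 change in KO was 0.01 (SE 0.50), and the other arm, miR-210-5p, held at most 1 in each KO library and was not a member. All KO libraries lay far below all WT libraries, but miR-210 cannot check the oxygen label of the KO libraries.

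The KO libraries summed to 8618630 and 10324869 normalized counts in normoxia and to 9649531 and 11136363 in hypoxia, and the members took 99.97% to 99.98% of each. Ribosomal RNA took 5.76% of hypoxia library 1 and 2.19% to 2.88% of the other 3. The KO normoxia libraries stood apart from the rest more often than the KO hypoxia libraries. Of the 429 members whose normoxia and hypoxia values did not overlap in KO, both normoxia libraries lay outside the range of the other 6 libraries (WT included) for 175, and both hypoxia libraries did so for 84. Of fibroblast microRNAs such as miR-21 and miR-143, 27 of 28 listed arms were members (summed 4221248 to 5806518 in normoxia, 4548998 to 6102080 in hypoxia). The lists that mark other cells summed to 99 to 216 against 75 to 256 for epithelial (3 of 7), 1082 to 2324 against 898 to 1602 for haematopoietic (5 of 8), 102 to 132 against 117 to 145 for endothelial (2 of 2), 114 to 137 against 200 to 230 for muscle (3 of 5), and 7735 to 11178 against 10775 to 12891 for neural and melanocyte arms (9 of 13). These counts cover only listed arms that the deposited table holds, and none of those was at 0 in all 4 libraries. Listed names without a row there included miR-1, miR-208a and miR-208b (muscle) and miR-124 (neural). In such bulk samples fewer cells of a type and less RNA per cell cannot be told apart. The muscle sum was higher in both hypoxia libraries, and the part of any of these lists in the results below was not tested.

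After 24 h of hypoxia no single small RNA passed the test in KO cells, while the classes of small RNA leaned in different directions. MicroRNAs were mostly higher in hypoxia, with 419 higher and 134 lower and a median log2 change of 0.25. Genomic transfer RNAs were mostly lower (305 lower, 107 higher, median −0.17), as were mitochondrial transfer RNAs (18 lower, 4 higher, median −0.32). Small nucleolar RNAs lay near 0 (167 higher, 200 lower, median −0.03), and their direction turned with 1 library (215 higher and 152 lower without normoxia library 1, median 0.05, and 118 higher and 249 lower without normoxia library 2, median −0.11). Over all members 768 were higher and 708 lower, with a median of 0.01 and a range of −2.45 to 2.01. The deposited values already sat near a scaling that sets the median feature ratio between libraries to 1. Its factors for the KO libraries were 0.9955 to 1.011. The even split over all members is therefore set largely by the scaling and is no result. The direction of a class is relative to the other features.

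The test was limma over all 1540 features that reached 10 in 2 or more of the 8 libraries, with Benjamini-Hochberg adjustment. Features with an adjusted p under 0.05 numbered 0 of 1540 (0%), and the smallest adjusted p was 0.804. An unadjusted p under 0.05 was found for 38 features that were higher in hypoxia (2.47% of those tested) and 45 that were lower (2.92%), together 83 (5.39%), among them 35 and 45 members. Among microRNAs these were 28 higher and 2 lower, among genomic transfer RNAs 0 higher and 36 lower, and among mitochondrial transfer RNAs 0 higher and 5 lower. Small nucleolar RNAs, with 367 members, had 0 in either direction.

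The count of features whose hypoxia and normoxia values did not overlap showed the same split by class. Of all features tested, 15.8% were higher and 13.1% lower without overlap. The microRNAs had 176 higher (31.8%) and 21 lower (3.79%). Genomic transfer RNAs had 15 higher (3.64%) and 121 lower (29.4%), mitochondrial transfer RNAs 0 higher and 10 lower, and small nucleolar RNAs 21 higher and 37 lower. In these counts the normoxia libraries again stood apart more often. Of the 176 microRNAs, both normoxia libraries lay outside the other 6 for 81 and both hypoxia libraries for 43, and of the 121 genomic transfer RNAs for 61 and 14.

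**Figure D1:**
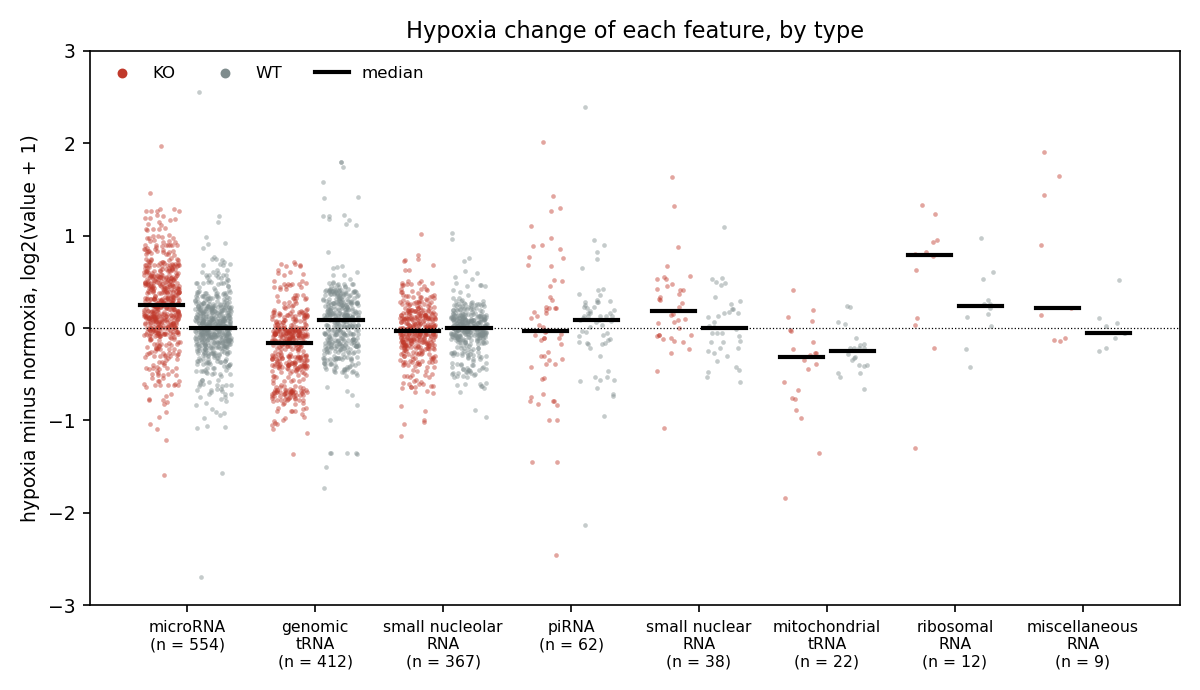
Log2 change from normoxia to hypoxia (vertical axis, log2(value + 1) scale) of each member by class of small RNA (horizontal axis), with KO in red, WT in grey and black bars at the medians. The KO medians were 0.25 for microRNAs, −0.17 for genomic transfer RNAs and −0.32 for mitochondrial transfer RNAs, against WT medians of 0.00, 0.08 and −0.25.

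These leanings depended on the scaling and on single libraries in size, but the medians of microRNAs and of both kinds of transfer RNA kept their direction. Scaled to the microRNA total of each library, the median of all members went from 0.01 to −0.13, the share of members that were higher went from 52.0% to 36.6%, and that of microRNAs from 75.6% to 59.0% (median 0.10). The share of genomic transfer RNAs that were higher went from 26.0% to 14.8% (median −0.31), and that of small nucleolar RNAs from 45.5% to 24.5%. The microRNA median was 0.38 without hypoxia library 1 and 0.16 without hypoxia library 2. For genomic transfer RNAs the same omissions gave −0.28 and −0.09, and for mitochondrial transfer RNAs the median was −0.15 without normoxia library 2 and −0.44 without hypoxia library 2. Among the larger classes, the share of the library was separate between conditions only for mitochondrial transfer RNAs, which took 1.22% and 1.37% in normoxia and 1.12% and 0.986% in hypoxia (exact two-sided permutation test, p = 0.333, the smallest that 2 against 2 libraries allow, adjusted p = 1). MicroRNAs took 75.3% and 76.7% against 73.0% and 80.2%, and genomic transfer RNAs 9.59% and 11.0% against 10.01% and 7.60%, so both overlapped.

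By rule, the 12 higher and the 12 lower members with the smallest p among those without overlap are described one by one. Each had an adjusted p of 0.804 (limma, Benjamini-Hochberg), so none passed the test, and their lack of overlap was a condition of the choice. The smallest p belonged to a small nuclear RNA, Gm23907 (FR231715 in the file, chromosome 15), a predicted gene of 194 bases. Its values were 67 and 70 under normoxia against 255 and 181 under hypoxia, a log2 change of 1.64 (SE 0.35). In WT it held 185 and 130 against 126 and 84, so the KO normoxia pair was the lowest of the 4 groups. Its deposited sequence is shown because it had the smallest p of all members that were higher.
Gm23907: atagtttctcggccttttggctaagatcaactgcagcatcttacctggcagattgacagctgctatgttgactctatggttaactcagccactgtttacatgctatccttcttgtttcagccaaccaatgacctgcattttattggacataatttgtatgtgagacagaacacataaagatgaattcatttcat

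Of the 12 higher members 10 were microRNAs. miR-467a-5p (chromosome 2) held 2468 and 2332 against 5554 and 6021, a log2 change of 1.27 (SE 0.31). miR-467c-5p, whose sequence above has the same first 6 seed bases, held 317 and 245 against 664 and 605, a change of 1.18 (SE 0.35). miR-467b-5p followed miR-467a-5p in near constant proportion in every library and is no separate measurement, and miR-466n-3p of the same cluster held 77 and 94 against 187 and 145 (0.94, SE 0.31). All 4 arms come from the Sfmbt2 cluster, a rodent microRNA cluster that is expressed strongly in placenta and embryonic cells. In WT miR-467a-5p held 6448 and 6721 against 6836 and 3705, so that the KO hypoxia libraries lay among the WT values and the KO normoxia libraries below them.

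The other 6 microRNAs that were higher came from clusters known for roles in growth and the cell cycle, or from clusters on other chromosomes. miR-374-5p (X chromosome) held 12338 and 13967 against 24614 and 22683, a change of 0.85 (SE 0.24), and miR-18a-5p of the miR-17 to miR-92a cluster (chromosome 14) held 11543 and 13909 against 32288 and 19407 (0.98, SE 0.32). miR-106b-5p, which lies in an intron of the replication gene Mcm7 (chromosome 5), held 26299 and 22869 against 43581 and 38876 (0.75, SE 0.25). In all 3 both hypoxia libraries lay above both normoxia libraries, as the rule of choice required. miR-16-2-3p (chromosome 3) held 1835 and 1504 against 5660 and 2839 (1.27, SE 0.38), miR-15a-3p (chromosome 14) held 324 and 344 against 670 and 604 (0.93, SE 0.28), and the scarce miR-183-3p (chromosome 6) held 40 and 27 against 101 and 64 (1.26, SE 0.42). The last of the 12 was a piRNA-annotated feature, FR364103 (chromosome 2), with 3 and 6 against 18 and 23 (2.01, SE 0.62). FR364103 reached 10 only in hypoxia, so the inclusion rule took it through the condition where it was high. For 10 of the 12 both KO normoxia libraries lay below all other 6 libraries, and for 2 both KO hypoxia libraries lay above them.

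The 12 lower members were 7 genomic and 3 mitochondrial transfer RNAs, 1 microRNA and 1 piRNA-annotated feature. The mitochondrial glutamate transfer RNA mt-Te held 1161 and 1795 against 509 and 630, a log2 change of −1.35 (SE 0.30). It was the only one of the 24 whose normoxia libraries lay above and whose hypoxia libraries lay below all other 6. miR-501-3p (X chromosome) held 233 and 225 against 74 and 77, a change of −1.59 (SE 0.44). WT held 50 and 43 against 97 and 35, so the KO normoxia libraries were the high ones. FR282446, annotated as a piRNA (chromosome 12), held 15 and 27 against 4 and 2 (−2.45, SE 0.70). The transfer RNAs are described with their families below.

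**Figure D2:**
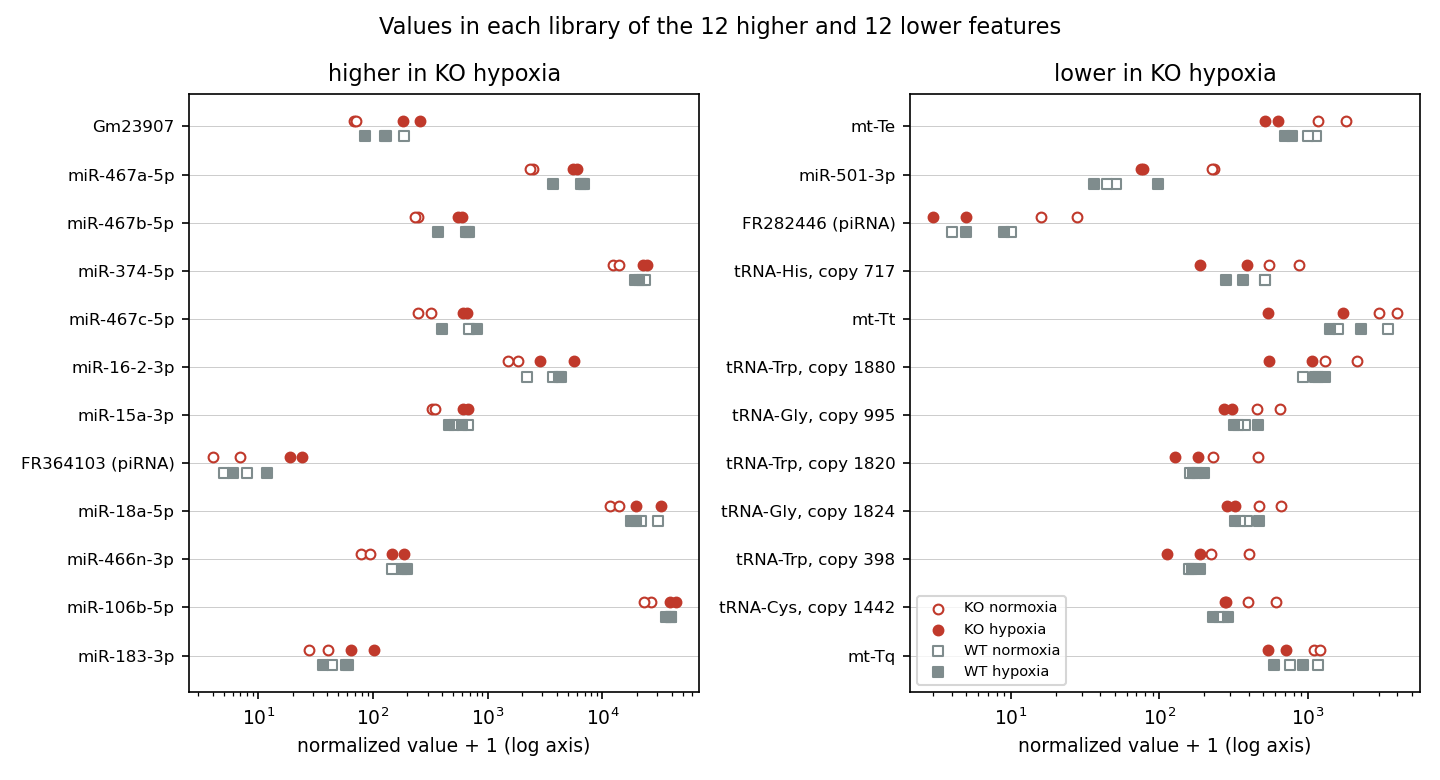
Normalized counts plus 1 (horizontal log axis) of the 12 higher and the 12 lower members (rows) in each library, with KO as circles and WT as squares, open for normoxia and filled for hypoxia. In the rows of miR-467a-5p, miR-18a-5p and miR-106b-5p the open KO circles lie to the left of all WT squares, and in the row of miR-501-3p they lie to the right.

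Grouped by seed, 20 families of 3 or more microRNAs were described. Beside the counts of families, lists and clusters stand 31.8% of all microRNA members and 15.8% of all features tested that were higher without overlap. The scarce GCUUCUU family (the 5p arms of miR-103-1, miR-103-2 and miR-107) had the highest median, 0.90, with 3 of 3 higher and 2 without overlap, and summed to 190 and 473 against 488 and 635. Its median was 0.24 without normoxia library 1 and 1.55 without normoxia library 2. The AAAGUGC family (miR-17, miR-20a, miR-20b, miR-93, miR-106a and miR-106b), which restrains cell cycle inhibitors such as p21, had 6 of 6 members higher and 4 without overlap, with a median log2 change of 0.66 (0.42 to 0.95). Its members summed to 77129 and 64972 in normoxia and to 145748 and 99478 in hypoxia, so both hypoxia libraries were higher. miR-20a-5p held 22154 and 14358 against 48577 and 24354 (0.95, SE 0.40), miR-17-5p held 21237 and 18605 against 35248 and 26924 (0.63, SE 0.34), and miR-93-5p overlapped with 6184 and 7925 against 16542 and 7796. The AUUGCAC family (miR-25, miR-32, miR-92a and miR-92b) had 4 of 4 higher and 2 without overlap, with a median of 0.84. miR-25-3p held 20749 and 9264 against 32251 and 26201 (1.07, SE 0.39) and miR-92b-3p 1862 and 1252 against 5216 and 2266 (1.17, SE 0.44). The most abundant member, miR-92a-3p, overlapped with 87150 and 46968 against 129331 and 74669 (0.62, SE 0.43), and so did the sum of the family. Leaving out any 1 KO library kept both medians above 0. The first went down to 0.38 without hypoxia library 1, and the second to 0.33 without normoxia library 2 and up to 1.26 without normoxia library 1. The miR-17 to miR-92a list with its relatives, whose members include many of these, had 17 of 20 higher, 8 without overlap and a median of 0.48 (0.19 without hypoxia library 1, 0.80 without hypoxia library 2), and its WT median was −0.14.

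The miR-15 and miR-16 family, with the seed AGCAGCA, restrains cyclins and other drivers of the cell cycle. It had 6 of 6 members higher, 3 without overlap and a median of 0.32, and summed to 52499 and 42409 against 59734 and 69453. Its main member miR-16-5p held 35328 and 27274 against 36682 and 49120 (0.45, SE 0.30), without overlap but with hypoxia library 1 close to normoxia library 1. With the passenger arms, the miR-15/16 list had 10 of 10 higher, 7 of them without overlap (31.8% of all microRNAs), and a median of 0.56. Besides miR-15a-3p and miR-16-2-3p, miR-15b-3p held 3652 and 3806 against 6624 and 5366 (0.68, SE 0.26). In all 7 both KO normoxia libraries lay below the other 6 libraries, and the list's WT median was 0.01.

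Several families that are abundant in fibroblasts had seed medians below the 0.25 of all microRNA members. The let-7 seed GAGGUAG had 6 of 10 higher, 2 without overlap, with a median of 0.13. This median became −0.01 on the microRNA total, and also without normoxia library 2 or hypoxia library 2. The most abundant member of the seed family, let-7f-5p, held 139004 and 77761 against 148781 and 162868 (0.58, SE 0.31). In turn, let-7c-5p held 57033 and 56166 against 41243 and 56495 (−0.23, SE 0.34). With both arms, the let-7 list had 16 of 21 higher and a median of 0.24. Without overlap 9 of the list were higher and 1 lower. The miR-30 seed GUAAACA had 5 of 5 higher, 2 without overlap, with a median of 0.13. That median turned to −0.02 on the microRNA total and to −0.07 after quantile normalization. The sum of the family did not overlap (160404 and 160686 against 194079 and 200169). For miR-29, whose targets include collagens, AGCACCA had 3 of 3 higher, 2 without overlap, and a median of 0.15. Its miR-29a-3p held 120111 and 115409 against 96168 and 147784 (0.02, SE 0.30). The miR-181 seed ACAUUCA had 2 of 4 higher and a median of 0.02 that turned negative under both scalings. miR-21-5p, the most abundant microRNA, held 2268463 and 2983225 against 2701719 and 2958842 (0.12, SE 0.28), and miR-22-3p 631543 and 1298459 against 594783 and 1062065 (−0.19, SE 0.42), both with overlap.

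**Figure D3:**
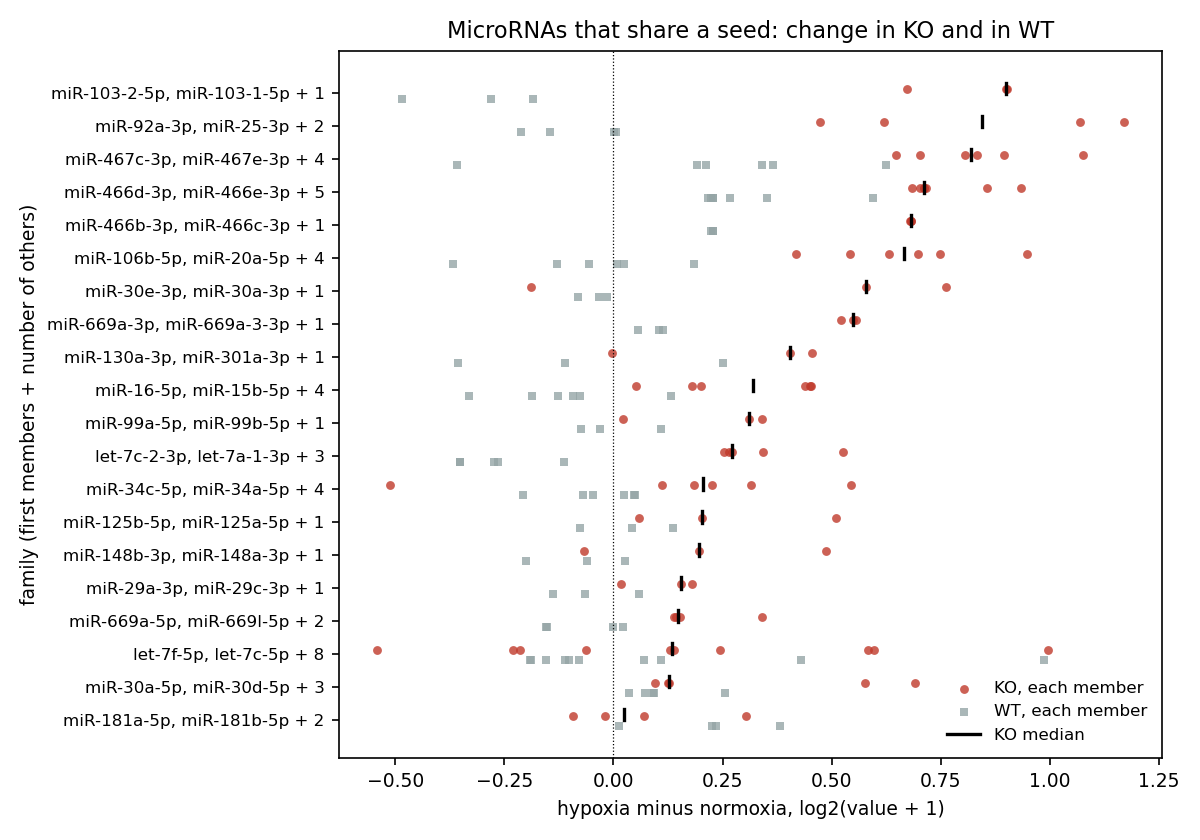
Log2 change from normoxia to hypoxia (horizontal axis) of the members of 20 seed families (rows, named by their first members), with KO as dots, WT as squares and a bar at the KO median. All members of the families that begin with miR-106b-5p, miR-92a-3p, miR-466b-3p, miR-466d-3p and miR-467c-3p lie above 0 in KO. So do those of many other families, such as miR-30a-5p, miR-29a-3p and miR-16-5p, where 75.6% of all microRNA members were higher. The let-7 members, whose median of 0.13 turned to −0.01 on the microRNA total, fall on both sides.

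The Sfmbt2 cluster had the highest median of the lists with 10 or more members. Of its 51 members 50 were higher in hypoxia and 36 without overlap, with a median of 0.61. Without overlap 31.8% of all microRNAs and 15.8% of all features tested were higher. The sum of the 51 was 11833 and 8725 in normoxia against 16765 and 18826 in hypoxia. The families AUACAUA (7 of 7 without overlap, median 0.71), UAUACAU (5 of 6, 0.82) and UACAUAC (3 of 3, 0.68) are mostly its 3p arms (miR-467g, of the first, lies outside the cluster). These sequences are near copies of each other, so they are not independent. miR-466b-3p held 1740 and 1131 against 2125 and 2380 (0.68, SE 0.30), and miR-669a-3p held 826 and 522 against 845 and 1092 (0.55, SE 0.32). Normoxia library 2 was the low one in both. Without it the cluster's median was 0.29, and without normoxia library 1 it was 0.88. In 32 of the 36 the KO normoxia libraries lay outside the other 6, and the WT sums were 21052 and 20408 against 21291 and 20740.

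On chromosome 12, the imprinted Dlk1-Dio3 domain carries many microRNAs that are expressed from the maternal copy. Of 77 members 64 were higher in hypoxia and 33 without overlap (median 0.27), where 31.8% of all microRNAs were higher without overlap. The sum of the 77 was 41804 and 44777 against 47659 and 59051. Both hypoxia libraries lay outside the other 6 for 32 of the 35 members without overlap, and both normoxia libraries for 2. miR-299-5p held 3158 and 1935 against 3966 and 4272 (0.74, SE 0.37) and miR-337-3p 2284 and 1716 against 2926 and 2802 (0.53, SE 0.37). The most abundant member, miR-127-3p, overlapped with 9133 and 12530 against 9629 and 14275 (0.13, SE 0.54). The levels in WT were lower in every group (summed 16383 and 28526 against 15769 and 35558). Where WT lies below KO, a member higher without overlap has its hypoxia pair outside the other 6 by that alone. The 32 against 2 therefore does not show which KO condition moved. The median was 0.13 on the microRNA total and 0.41 without hypoxia library 1.

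Other microRNA clusters were described by position, with neighbours at most 10000 bases apart grouped. In the cluster of miR-182, miR-183 and miR-96 on chromosome 6, known from sensory cells, 6 of 6 arms were higher with a median of 0.68, but only 1 without overlap. Its sum of 4347 and 2395 against 7076 and 3704 overlapped, and its median was 0.21 without hypoxia library 1 and 1.42 without hypoxia library 2. In the cluster of miR-374 and miR-421 (X chromosome) 3 of 3 were higher without overlap (median 0.58). The cluster in Clcn5 (X chromosome) was mixed, with 4 of 9 higher and a median of −0.04 that turned to 0.07 after quantile normalization. Without normoxia library 1 or 2 it was −0.24 or 0.38, and without hypoxia library 1 or 2 it was 0.08 or 0.02. Its miR-500-3p, which shares the seed of miR-501-3p, held 722 and 790 against 371 and 520 (−0.78, SE 0.32) and was lower without overlap too. From the same hairpins, miR-501-5p overlapped with 696 and 1355 against 900 and 1227 (0.11), and miR-500-5p was higher, with 81 and 73 against 141 and 112 (0.70, SE 0.31).

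In 168 hairpins with both arms among the members, both arms were higher in 104, both lower in 9 and the arms went apart in 55, where 75.6% of all microRNA members were higher. The median was 0.30 for the more abundant arm and 0.22 for the other. The 3p arms had 198 of 256 higher (median 0.32) and the 5p arms 192 of 250 (median 0.21). The median hardly varied with abundance, at 0.26, 0.25, 0.24 and 0.24 for mean KO levels of 10 to 100, 100 to 1000, 1000 to 10000 and above.

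The microRNAs described in the literature as responding to hypoxia, a list that sets no direction, had 49 of 56 members higher and a median of 0.28, against 0.25 for all microRNA members. It had 16 of 56 higher without overlap, where all microRNAs had 31.8%. Of its most abundant members, miR-24-3p held 146576 and 193612 against 143682 and 289164 (0.27, SE 0.42), and miR-23b-3p held 149026 and 154603 against 151705 and 249779 (0.36, SE 0.41). In both the second hypoxia library alone was high. The median was 0.11 without it and 0.44 without hypoxia library 1. The miR-34 arms, targets of p53, were higher in 6 of 6 (median 0.27, −0.05 without hypoxia library 2), and those of the miR-322 and miR-503 cluster in 9 of 10 (median 0.48, 0.04 without hypoxia library 2 and 0.13 without normoxia library 1). miR-221-3p held 123642 and 53618 against 47457 and 59094 (−0.62, SE 0.44), with normoxia library 1 high, and 2 of 4 arms of miR-221 and miR-222 were higher. Of the 3 muscle arms, miR-206-3p was higher without overlap, with 107 and 101 against 204 and 176 (0.86, SE 0.41), miR-133a-3p was lower without overlap, with 14 and 13 against 7 and 12 (−0.51, SE 0.52), and miR-206-5p held 16 and 0 against 19 and 12. Of the 3 epithelial arms, miR-203-3p held 16 and 15 against 5 and 9 (−1.09, SE 0.60), without overlap, and reached 10 only in normoxia. The other arms, miR-200a-3p (9 and 23 against 17 and 17) and miR-205-5p (74 and 178 against 53 and 230), overlapped.

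Genomic transfer RNAs were lower in most families, by different amounts. Beside the family counts below, 29.4% of all genomic copies and 13.1% of all features tested were lower without overlap. Each feature is 1 gene copy named by its amino acid and anticodon, and the 412 copies hold 316 distinct entries. Copies of a family share sequence and are not independent, and the handling of reads that match several copies was not stated. Copies of the families that the results turn on are shown as deposited, with the anticodon in capitals.
chr11.tRNA1880-TrpCCA: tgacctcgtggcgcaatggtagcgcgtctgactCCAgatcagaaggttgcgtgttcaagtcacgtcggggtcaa
chr1.tRNA995-GlyTCC: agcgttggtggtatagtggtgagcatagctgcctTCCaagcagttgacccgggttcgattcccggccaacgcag
chr6.tRNA162-CysGCA: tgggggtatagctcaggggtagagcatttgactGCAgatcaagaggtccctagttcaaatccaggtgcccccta
chr1.tRNA717-HisATG: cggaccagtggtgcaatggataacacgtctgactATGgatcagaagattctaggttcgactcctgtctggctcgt

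Among anticodons with 6 or more copies, tryptophan CCA, glycine TCC, arginine ACG and cysteine GCA had the lowest medians. All 8 copies with the tryptophan anticodon CCA were lower, 4 without overlap, with a median log2 change of −1.02, and they summed to 3776 and 8095 against 1917 and 3645. chr11.tRNA1880-TrpCCA held 1307 and 2136 against 542 and 1067 (−1.13, SE 0.38), chr11.tRNA1820-TrpCCA 228 and 461 against 127 and 181 (−1.09, SE 0.37) and chr11.tRNA398-TrpCCA 221 and 400 against 112 and 187 (−1.03, SE 0.37). Normoxia library 2 was the high one throughout. Without it the median was −0.44, without hypoxia library 1 it was −0.58, and without normoxia library 1 it was −1.62. Glycine copies with TCC were lower without overlap in 7 of 7 (median −0.88), and chr1.tRNA995-GlyTCC held 645 and 453 against 272 and 308 (−0.90, SE 0.31). Their sum was 4953 and 3487 against 2198 and 2411, with normoxia library 1 the high one. The median stayed at or below −0.64 without any one KO library.

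Arginine copies with ACG were lower without overlap in 6 of 6 (median −0.78), with sums of 3929 and 6160 against 3075 and 2598 (median −0.49 without normoxia library 2). Cysteine copies with GCA form the largest family. All 56 were lower and 46 without overlap, with a median of −0.69 and sums of 18094 and 30256 against 15552 and 16387. chr11.tRNA1442-CysGCA held 395 and 604 against 279 and 275 (−0.82, SE 0.30), and chr6.tRNA162-CysGCA held 259 and 317 against 171 and 178 (−0.71, SE 0.29). The cysteine median was −0.21 without normoxia library 2. The single histidine copy with the anticodon ATG, chr1.tRNA717-HisATG, held 543 and 875 against 387 and 186 (−1.36, SE 0.39), while the 10 copies with GTG had a median of −0.01 that turned to 0.04 after quantile normalization.

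Over all 50 anticodons the summed values were lower in hypoxia for 34 and higher for 16, without overlap for 13 lower and 1 higher (serine TGA). Every copy was lower for 16 anticodons and higher for 6. The abundant glycine GCC family was lower in 14 of 14 copies and 12 without overlap, with sums of 113277 and 162245 against 108638 and 86436 and a median of −0.40 (−0.19 without normoxia library 2, −0.24 without hypoxia library 2). Aspartate copies were higher in 16 of 16 (median 0.35, −0.07 without normoxia library 1), but their sums overlapped with 63478 and 108308 against 110467 and 105849, normoxia library 1 being low. Serine copies with GCT were higher in 8 of 8 (median 0.59, 0.22 without normoxia library 2, 0.33 without hypoxia library 1), again with overlapping sums of 5028 and 3215 against 6730 and 5002. Phenylalanine copies showed how far 2 libraries of a group could differ, with sums of 3563 and 10742 against 14416 and 3020, and their median of 0.08 turned to −0.06 on the microRNA total and ran from −1.06 to 1.22 when 1 KO library was left out. By abundance the median was −0.18 for copies with a mean of 10 to 100, −0.25 for 100 to 1000 and −0.11 for 1000 to 10000, and 0.25 for the 10 copies above 10000.

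**Figure D4:**
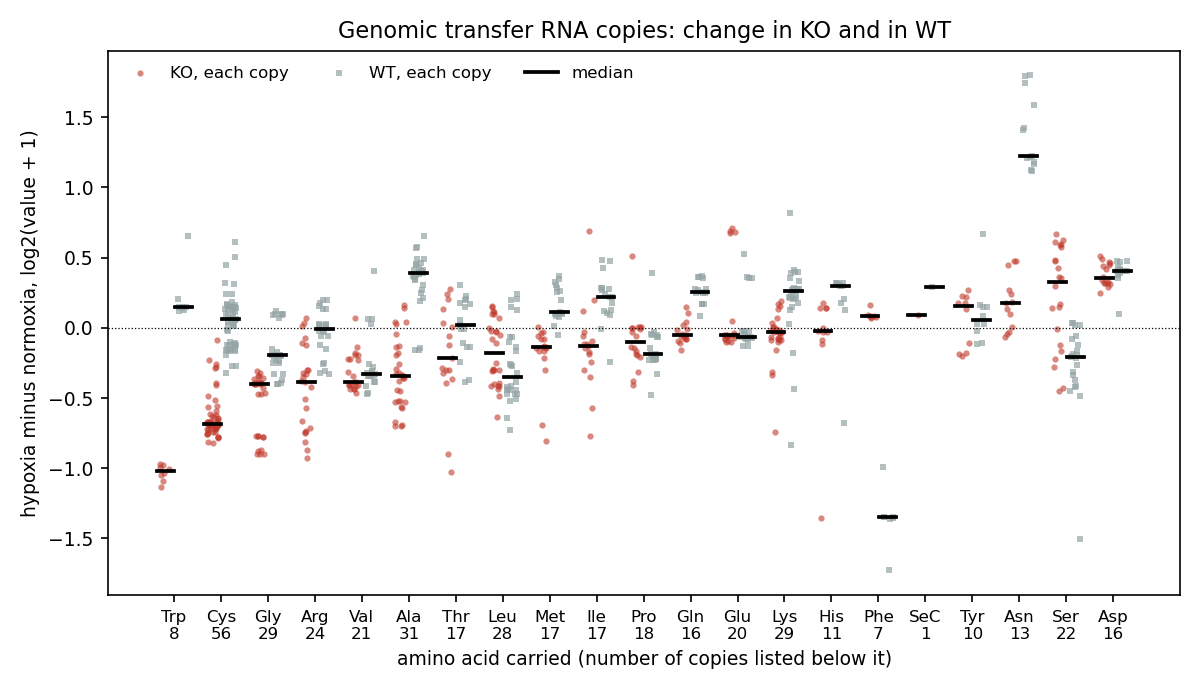
Log2 change from normoxia to hypoxia (vertical axis) of the genomic transfer RNA copies by amino acid (horizontal axis, with the number of copies), for KO and WT, with bars at the medians. The KO medians ran from −1.02 for tryptophan to 0.35 for aspartate. That of phenylalanine (0.08) turned negative on the microRNA total.

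All 22 mitochondrial transfer RNAs were members, and 18 were lower in hypoxia, 10 of them without overlap (13.1% of all features tested), with a median of −0.32. They are cut from the long transcripts of the mitochondrial genome and serve translation of respiratory chain subunits. The sequences of the glutamate and threonine transfer RNAs, which were the lowest, are shown as deposited with the anticodon in capitals.
mt-Te: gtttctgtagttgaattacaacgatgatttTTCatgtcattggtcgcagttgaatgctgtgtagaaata
mt-Tt: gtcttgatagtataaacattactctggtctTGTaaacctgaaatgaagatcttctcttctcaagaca
The threonine transfer RNA mt-Tt held 2986 and 3945 against 536 and 1713 (−1.84, SE 0.55), and the glutamate transfer RNA mt-Te had the values given above. The glutamine transfer RNA mt-Tq held 1095 and 1200 against 537 and 711 (−0.89, SE 0.33), and the glycine transfer RNA mt-Tg 8968 and 12220 against 3687 and 7678 (−0.98, SE 0.37). Both hypoxia libraries lay below both normoxia libraries in each of these 4. Next among those without overlap was the arginine transfer RNA mt-Tr with 652 and 869 against 412 and 544 (−0.67, SE 0.29).

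The other 5 without overlap, mt-Ta, mt-Ts1, mt-Tf, mt-Tp and mt-Ti, had changes of −0.45 to −0.23. The most abundant, mt-Ts2, held 31162 and 44648 against 47303 and 32493 (0.07, SE 0.35), and mt-Th held 11432 and 15521 against 11020 and 13046 (−0.15, SE 0.32). The 4 that were higher were mt-Ty (0.41), mt-Tn (0.20), mt-Tl1 (0.12) and mt-Ts2, all with overlap. On the plus strand as given in GENCODE M21 12 of 14 were lower, and on the minus strand 6 of 8. The sum over the minus strand, 13479 and 17121 against 13453 and 15143, overlapped, as did that over the plus strand. In WT 4 of the 22 were higher and 18 lower, with a median of −0.25, and no mitochondrial transfer RNA had an interaction past the threshold (limma).

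**Figure D5:**
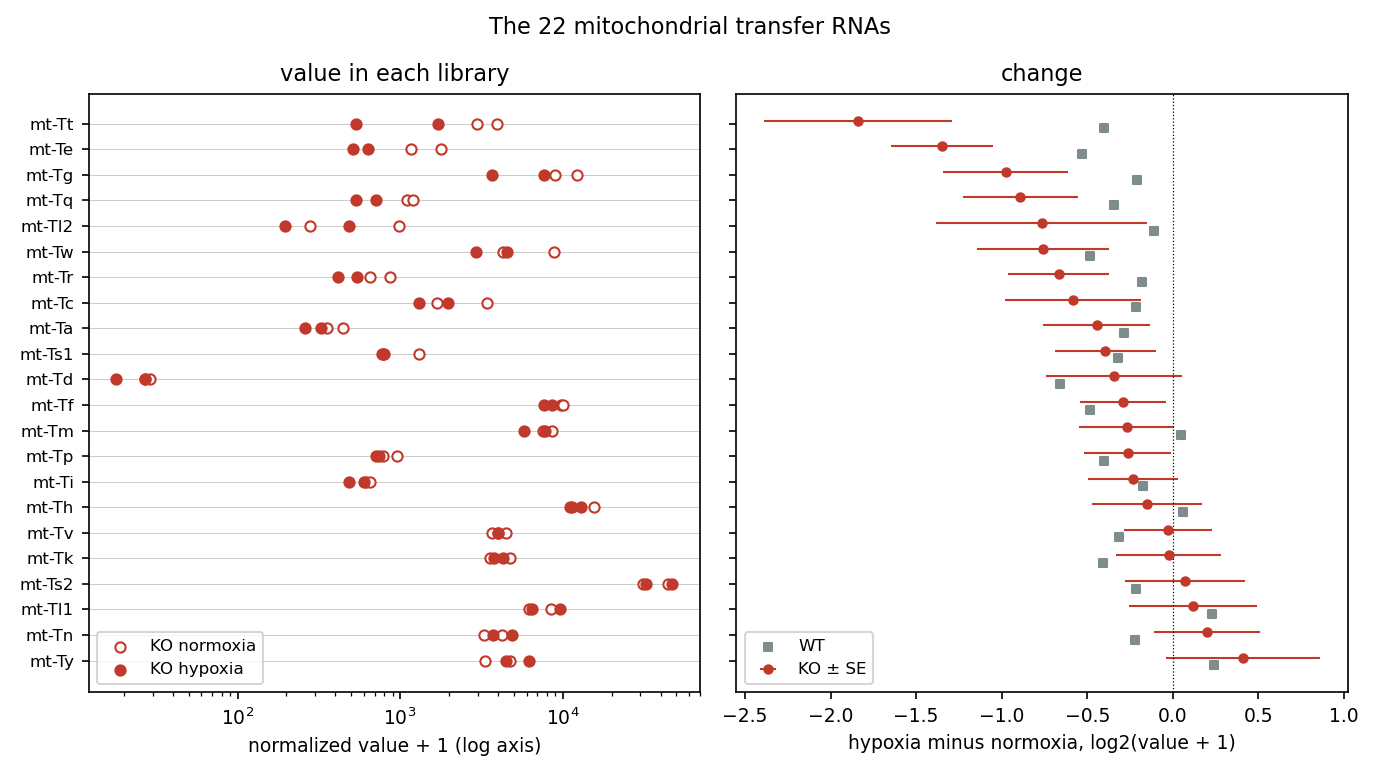
Left, normalized counts (log axis) of the 22 mitochondrial transfer RNAs (rows) in the 4 KO libraries. Right, their log2 change in KO with its standard error and in WT; mt-Tt and mt-Te have the lowest KO values, −1.84 and −1.35.

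Small nucleolar RNAs, the third largest class, had no member at an unadjusted p under 0.05. Features under 100 bases, the size of C/D box RNAs, had 95 higher and 79 lower (median 0.02), and longer ones, the size of H/ACA box RNAs, 72 higher and 121 lower (median −0.08). Those named Snord had 45 of 68 higher (median 0.10). The smallest p belonged to Gm25091, which held 2019 and 2413 against 1651 and 1229 (−0.63, SE 0.28), one of 2 features of Gm25617, with 113 and 123 against 74 and 78 (−0.63, SE 0.29), and Gm23389, with 56 and 60 against 87 and 94 (0.63, SE 0.31). None of these overlapped. The most abundant, Snord22, overlapped with 37602 and 38267 against 35426 and 41519 (0.02, SE 0.26). The 22 on chromosome 12, which carries the Dlk1-Dio3 domain, had 5 higher and 17 lower (median −0.06).

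Ribosomal RNA features were higher in 10 of 12, 4 without overlap, with a median of 0.79, and 1 was lower without overlap. Of all features tested, 15.8% were higher and 13.1% lower without overlap. The most abundant, the 5S gene copy n-R5s194, held 179825 and 281624 against 538192 and 275372 (0.77, SE 0.37), so that only hypoxia library 1 was high. Gm25365 held 1151 and 1770 against 3298 and 2306 (0.95, SE 0.35) and Gm24786 22 and 44 against 112 and 57 (1.33, SE 0.50), both without overlap. The scarce n-R5s174 was lower, with 15 and 16 against 4 and 8 (−1.30, SE 0.58), and reached 10 only in normoxia. The class median was 0.43 without hypoxia library 1 and 1.21 without hypoxia library 2. Hypoxia library 1 is the one with the high share of ribosomal RNA, and the part of that share in the other results was not tested.

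Of 38 small nuclear RNAs 25 were higher, but 1 in each direction had no overlap, and the median of 0.19 was −0.27 without hypoxia library 1 and −0.07 without normoxia library 2. Besides Gm23907, FR405909 (Gm22710) was lower with 565 and 609 against 413 and 434 (−0.47, SE 0.26). The most abundant, Gm26244, overlapped with 32866 and 18458 against 24740 and 16962 (−0.27, SE 0.34). The 62 piRNA-annotated features had 29 higher and 33 lower. Their most abundant members carry sequences of small nucleolar RNA genes, FR298990 (Gm24452) with 18094 and 18237 against 15981 and 27826 and FR283123 (Snord2) with 6947 and 5206 against 8876 and 5559. Of 9 miscellaneous RNAs 6 were higher, 4 without overlap, where 15.8% of all features tested were higher without overlap. All had low values, such as Gm26102 with 24 and 12 against 47 and 49 (1.44, SE 0.52). Gm25883 held 3 and 9 against 15 and 34 (1.90, SE 0.66). Gm25883 and Gm22204 (2 and 7 against 12 and 17) reached 10 only in hypoxia. The inclusion rule thus took them through the condition where they were high. The other transfer RNA feature, FR267504, matches mt-Tf and held 28 and 23 against 37 and 35.

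Whether the change in KO cells differed from that in WT cells was tested as an interaction (KO log2 change less that in WT). It passed for 0 of 1540 features (0%, limma with Benjamini-Hochberg adjustment), and 37 had an unadjusted p under 0.05 (2.4%). In WT, hypoxia against normoxia also gave 0 features past the threshold, with 20 at an unadjusted p under 0.05 (1.3%). Even miR-210-3p did not pass there, with a WT log2 change of 2.55 (SE 0.50, limma, unadjusted p = 0.00055). With 2 libraries per group, 0 features past the threshold therefore does not show that none changed. Among members the smallest interaction p belonged to Gm23907 (2.22, SE 0.49, adjusted p = 0.917), followed by miR-467a-5p (1.66, SE 0.44, adjusted p = 1.00), its near constant companion miR-467b-5p (1.65, SE 0.46, adjusted p = 1.00) and miR-210-3p (−2.55, SE 0.71, adjusted p = 1.00). miR-18a-5p came next, with 30326 and 21584 against 19686 and 17598 in WT and an interaction of 1.44 (SE 0.45, adjusted p = 1.00). The asparagine copy chr3.tRNA757-AsnGTT went the other way, with 375 and 455 against 381 and 430 in KO and 277 and 335 against 619 and 805 in WT (−1.24, SE 0.40, adjusted p = 1.00).

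By class, the WT values of the same 554 microRNAs were higher in 282 and lower in 272 (median 0.00), without overlap in 44 and 48. The 412 genomic transfer RNAs in WT were higher in 238 and lower in 174 (median 0.08). Without overlap 14.4% of features were higher and 11.4% lower in WT. The 13 asparagine copies were higher without overlap in all 13 in WT (median 1.22), against 0 of 13 in KO (median 0.18). The difference between genotypes was not tested for classes or families.

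The rule of at least 10 in 2 KO libraries drew its line through features of few reads. The second highest KO value was 10 for 13 members and 9 for 24 features left out. Just inside lay the piRNA-annotated FR375082 and FR282812, each with 10 and 37 against 6 and 7, and miR-351-3p with 10 and 9 against 6 and 23. Just outside lay miR-669b-3p with 2 and 1 against 9 and 12, miR-200c-3p with 6 and 8 against 12 and 9, and Gm24936 with 9 and 7 against 9 and 11.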

How the data were processed

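Small RNA libraries were analysed from a whole-series table of 2403 features and 8 libraries. The deposited values are treated as a score: read counts that the authors normalized and rounded to whole numbers. Per the labels, a miRNeasy kit gave the RNA and a NEBNext set for SOLiD the libraries. Aligner, genome build, normalization and handling of reads with several matches: not given in the sources used here. No coordinates are therefore printed. Totals of the KO libraries, 8618630 to 11136363, are sums of normalized values and do not give the read depth, which is not stated. Features of few reads are limited by their low values.

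log2(value + 1) of the 1540 features that reached 10 in 2 or more of 8 libraries was fitted with limma 3.58.1 (R 4.3.3, trend by intensity), using 4 group means (4 residual and 5.64 prior degrees of freedom), with Benjamini-Hochberg adjustment and a threshold of 0.05. Summaries used Python 3.11.15, numpy 2.4.6 and pandas 2.3.3. The fit was tested on simulated data. Names of other features come from GENCODE M21 by transcript ID, or where 1 sequence holds the other at similar length (396 of 511 members). A piRNA-annotated feature was named by an RNA that holds its sequence, of any length. RefSeq matched 425 of 554 member microRNAs, and a seed could be set for 539.

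The members and lists were chosen with earlier results of these data known. Named features are both miR-210 arms, the 12 higher and 12 lower members with the smallest p without overlap, the 2 most abundant and 3 with the smallest p of each class, up to 4 abundant members of each list, the 6 with the smallest interaction p and the 3 on each side of the abundance rule. miR-17-5p, miR-20a-5p, miR-25-3p, miR-92b-3p, miR-93-5p, miR-500-3p, miR-500-5p, miR-501-5p, chr6.tRNA162-CysGCA and the remaining mitochondrial transfer RNAs were chosen after their values were seen. The labels do not say what a replicate number marks, so numbers were not used as pairs. Alternatives were other pseudocounts, filters, scalings, no trend, the KO libraries alone, the number as a block and leaving out each library.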

Additional observations from a re-analysis of the deposited data

How the results depend on the processing

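Changing the pseudocount, filter, trend, scaling or libraries gave 0 features past the threshold in KO and 0 for the interaction throughout (limma, Benjamini-Hochberg). In the fit reported, 80 of the 1477 members had an unadjusted p under 0.05 (limma). Among all 1540 features tested it was 83 (5.39%), a share close to the cutoff of 0.05 itself. The KO libraries alone gave 43 of the 1477 members. Blocking by library number gave 152 of the 1477 (82 higher, 70 lower, smallest Benjamini-Hochberg adjusted p 0.144). For the interaction, 33 of the 1477 members had an unadjusted p under 0.05 (limma), and 83 of the 1477 under that blocking. Of all 1540 features it was 37 (2.4%) in the fit reported. The labels do not say whether the numbers pair cultures. Deviations of same-numbered libraries correlated positively in all 6 pairs of groups (0.151 between the KO groups to 0.551 between the WT groups, across 1540 features that are not independent).

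Scaled to the microRNA total, medians were 0.10 for microRNAs, −0.31 for genomic transfer RNAs, −0.17 for both small nucleolar RNAs and piRNAs, 0.42 for the miR-15/16, 0.10 for the let-7, 0.0092 for the miR-29, −0.019 for the miR-30 and 0.13 for the Dlk1-Dio3 list. Quantile normalization gave −0.083 for miR-30. The causes were not tested. Leaving out 1 library gave 0.16 to 0.38 for microRNAs, −0.28 to −0.092 for genomic transfer RNAs, −0.0034 to 0.20 for piRNAs and 0.25 to 0.58 for miscellaneous RNAs. It gave 0.29 to 0.88 for the Sfmbt2, 0.21 to 0.41 for the Dlk1-Dio3, 0.53 to 0.73 for the miR-15/16, 0.10 to 0.36 for the let-7, 0.14 to 0.29 for the miR-30, −0.55 to 0.21 for the haematopoietic and 0.0018 to 0.44 for the neural and melanocyte list. Low counts limit features near the abundance rule, such as FR364103.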
